A study of Homo sapiens with 6 samples.

Results

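The genes described here encode the enzymes that build and break down glycogen. The list named 9 genes, and 8 of them (GYG1, GYG2, UGP2, GYS1, GBE1, PYGB, PYGL and PYGM) were found by symbol among the 22604 genes of the count table. PPP1R3C was not analysed here. The members were chosen by measured values of these libraries, since the RNA of GYG2 was higher with wild-type NFIB and lower with NFIB lacking its intrinsically disordered region (IDR), each relative to the empty vector. The fold changes of GYG2 are therefore given as a description and were not tested, whereas the other members were read from a test over all genes.

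The RNA was measured in SKNMC cells, a Ewing sarcoma line driven by the EWS-FLI1 fusion, with 2 libraries in each of 3 groups. The groups carried an expression vector for NFIB without its IDR (NFIBΔIDR), an expression vector for wild-type NFIB (NFIBWT) or an empty expression vector (EV), and were labelled as untreated otherwise. The introduced NFIB proteins had a V5 tag, and per the study's methods genes were delivered by lentivirus and infected cells were selected with puromycin. All groups kept EWS-FLI1 and their own NFIB gene, and all come from this single cell line.

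Glycogen is a branched store of glucose. Glycogenin (GYG1 or GYG2) attaches the first glucose units to itself, glycogen synthase (GYS1 in most tissues) extends the chain with UDP-glucose made by UGP2, and the branching enzyme GBE1 adds branch points. Glycogen phosphorylase, with a brain form (PYGB), a liver form (PYGL) and a muscle form (PYGM), releases glucose 1-phosphate again. GYG1 is the glycogenin of muscle and most other tissues, and GYG2 is known mainly from liver. Synthase and phosphorylase are switched by phosphorylation, and the PPP1R3 proteins bring protein phosphatase 1 to the glycogen particle.

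Library totals ranged from 6664231 to 8465572 counts, and 13501 genes passed the expression filter. Levels are in CPM, the count relative to the library total scaled by the trimmed mean of M values (TMM), where 1 CPM stood for 6.67 to 8.37 counts. The libraries of NFIBWT differed more from each other (SD of the log2 difference over genes 0.38) than those of NFIBΔIDR and EV (0.28 for each). A chi-square of the counts within each pair, per degree of freedom, was 9.37 with NFIBWT, 1.63 with NFIBΔIDR and 1.84 with EV. The p values rest on a spread shared by all groups. NFIB RNA was at 2227 and 2332 CPM with NFIBΔIDR, 969 and 1051 CPM with NFIBWT and 176 and 145 CPM with EV, in the order of NFIBΔIDR, NFIBWT and EV from high to low. Reads of the introduced and the endogenous NFIB were counted together. The Ewing sarcoma markers NKX2-2, STEAP1, CCND1 and CAV1 were detected in every library, whereas summed markers of liver (8 genes) lay between 2.16 and 3.40 CPM and those of fat (5 genes) between 0.590 and 2.18 CPM. Of 4 blood markers listed, 2 had a row. PTPRC, a leukocyte marker, was at 251 to 312 CPM over the 6 libraries, whereas CD68 was at 2.87 to 4.19 CPM. CD99 was not analysed here.

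GYG2, which gave the list its reason, had 46.7 and 44.1 CPM with NFIBΔIDR, 102 and 93.1 CPM with NFIBWT and 67.4 and 64.9 CPM with EV. The 3 groups did not overlap, with NFIBΔIDR lowest and NFIBWT highest. As a description, the log2 difference was -0.54 (SE 0.10) for NFIBΔIDR against EV, 0.56 (SE 0.10) for NFIBWT against EV and -1.10 (SE 0.10) for NFIBΔIDR against NFIBWT. These values came from 299 to 723 counts in a library. Leaving out any library kept the last difference between -1.16 and -1.04. GYG2 was chosen by the values of these libraries, so this range is a description and no independent support. Fibroblast markers (7 genes, all of at least 1 CPM on average) summed to 375 and 383 CPM with NFIBΔIDR, 545 and 559 CPM with NFIBWT and 413 and 427 CPM with EV. That order of the sums was the order of GYG2, but the single markers differed. DCN, LUM and COL1A2 had it too, whereas COL3A1 and THY1 did not keep it, and COL1A1 and PDGFRB ran the other way (log2 difference between the constructs 1.079 and 0.384, adjusted p = 0.0156 and 0.132). The part of fibroblast genes in the values of GYG2 was not tested. In bulk RNA, fewer cells expressing a gene and less RNA per cell cannot be told apart. GYG2 lies on the plus strand of chromosome X of hg19 from 2746863 to 2800859.

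**Figure D1:**
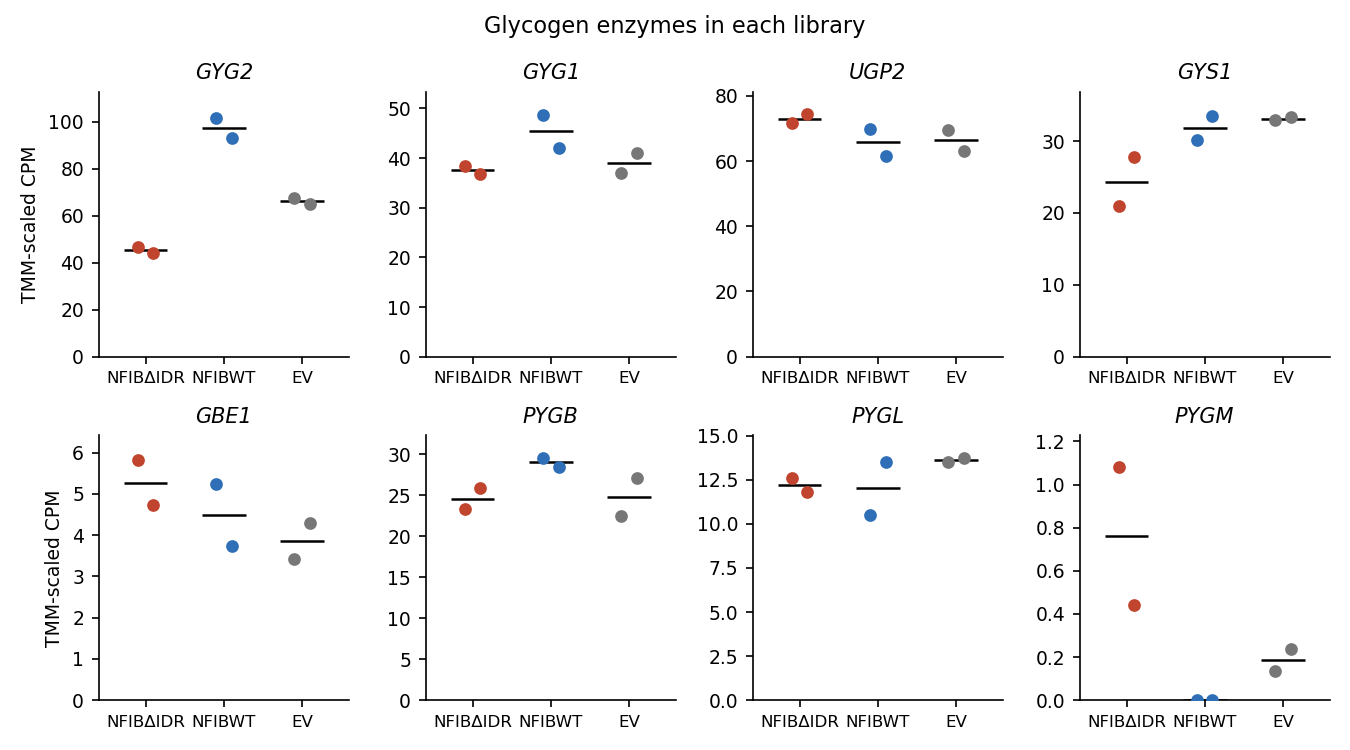
RNA levels of the 8 glycogen enzyme genes in TMM-scaled CPM (vertical axes, each from 0) with NFIBΔIDR, NFIBWT and EV. Points are the 2 libraries of a group and lines are their means. GYG2 has means of 45.4, 97.3 and 66.2 CPM in these groups, whereas the libraries of UGP2 lie between 61.7 and 74.5 CPM in all of them.

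Stretches of 100 bases directly before the annotated start of 4 members follow, from RefSeq on GRCh38.p14. They are shown because NFI proteins bind the sequence TTGGC. Its occurrences on either strand, where the opposite strand reads as GCCAA, are in capitals, and the full palindrome searched was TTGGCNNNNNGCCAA.
GYG2, chrX:2828830-2828929, plus strand: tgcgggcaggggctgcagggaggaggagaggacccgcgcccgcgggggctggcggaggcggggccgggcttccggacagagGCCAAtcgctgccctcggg
GYG1, chr3:148991440-148991539, plus strand: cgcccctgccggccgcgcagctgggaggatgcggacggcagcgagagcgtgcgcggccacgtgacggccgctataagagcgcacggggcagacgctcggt
GYS1, chr19:48993310-48993409, minus strand: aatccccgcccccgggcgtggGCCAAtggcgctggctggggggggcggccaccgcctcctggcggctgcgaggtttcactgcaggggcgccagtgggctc
UGP2, chr2:63840869-63840968, plus strand: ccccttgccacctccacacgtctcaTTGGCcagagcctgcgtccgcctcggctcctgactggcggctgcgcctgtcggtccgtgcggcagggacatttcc

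The GYG2 sequence held the motif 19 bases before the start, GYS1 held it 79 bases before and UGP2 75 bases before, and the GYG1 sequence did not hold these letters. In the window from 250 bases before to 50 bases after the start, 3 of the 7 members with a RefSeq promoter (42.9%) held TTGGC or GCCAA in any promoter. Counted by promoter and not by gene, the share was 45.6% of 35116 promoters. UGP2 had another promoter window (chr2:63841646-63841945), which did not hold these letters. None of these members held the palindrome, which 0.0285% of all promoters held. In GYG2, GYS1 and UGP2 the letters also overlapped a CCAAT box, the sequence bound by NF-Y, and such an overlap was in 14.8% of promoters. A match shows only these letters and no binding. The study gives TGGCA as the NFIB half-site and places increases of NFIB binding after EWS-FLI1 depletion mainly in distal regions. Neither TGGCA nor distal regions were searched here.

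GYG1, the other glycogenin, differed little between the groups. It had 38.4 and 36.8 CPM with NFIBΔIDR, 48.7 and 42.0 CPM with NFIBWT and 37.0 and 41.1 CPM with EV. NFIBWT was highest by a small margin over both other groups, which overlapped. The log2 difference was -0.06 (SE 0.12, adjusted p = 0.877) for NFIBΔIDR against EV, 0.21 (SE 0.12, adjusted p = 0.446) for NFIBWT against EV and -0.27 (SE 0.12, adjusted p = 0.168) for NFIBΔIDR against NFIBWT, from edgeR's quasi-likelihood test with Benjamini-Hochberg adjustment over all genes tested. Without NFIBWT replicate 2, the last 2 differences were 0.32 (adjusted p = 0.0344) and -0.38 (adjusted p = 0.00801), next to ranges of the adjusted p over 14 alternatives of 0.0344 to 0.999 and 0.00801 to 0.492. GYG1 lies on the plus strand of chromosome 3 of hg19 from 148709195 to 148749562, and in GENCODE 1649 bases of its exons overlap exons of HLTF, a chromatin remodeller on the opposite strand. HLTF was at 721 to 806 CPM, far above GYG1. The study names RefSeq genes of hg19 for its expression values, so the overlap in the models counted may differ. The sources do not say whether reads were counted by strand or how reads in an overlap were handled. The part of HLTF reads in the GYG1 counts was not tested.

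The makeup of glycogenin RNA differed between the groups. Per kilobase of gene length, GYG2 made up 42.0% and 41.7% of the glycogenin RNA with NFIBΔIDR, 55.4% and 56.9% with NFIBWT and 52.1% and 48.5% with EV. The groups did not overlap. This share contains the values of GYG2 by which the list was chosen, so it has no test. The share and the sum also take GYG1 as counted, and the part of HLTF reads in it was not tested. The sum of both genes was 32.0 ± 1.11 CPM per kilobase (SD, n = 2) with NFIBΔIDR, 51.1 ± 4.12 with NFIBWT and 38.8 ± 0.911 with EV.

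**Figure D2:**
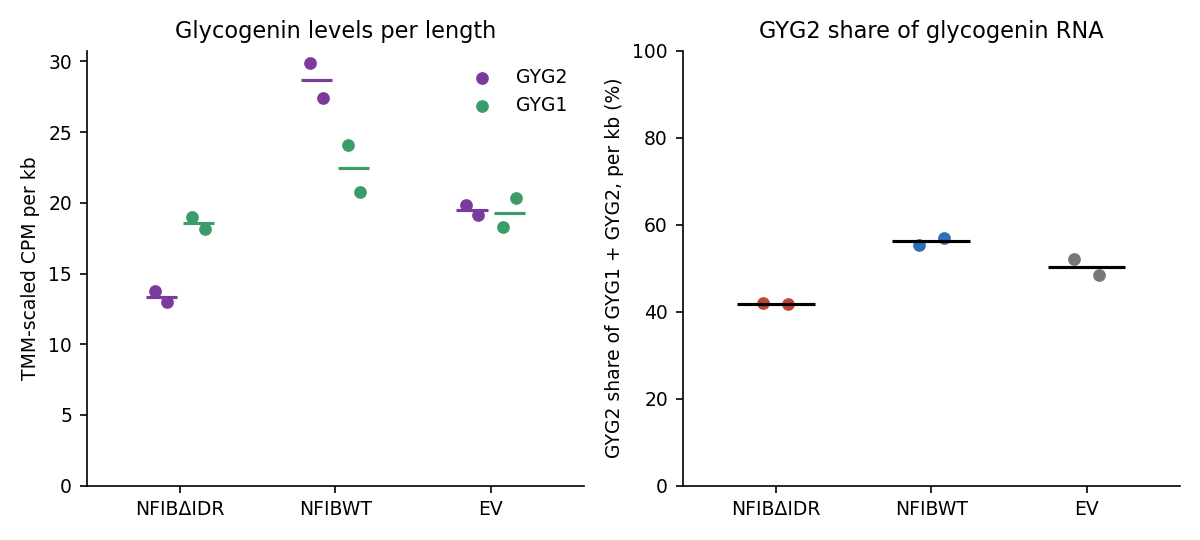
Left, GYG2 and GYG1 in TMM-scaled CPM per kilobase of gene length. Right, the share of GYG2 in the sum of both, in percent, with NFIBΔIDR, NFIBWT and EV. Points are libraries and lines are means of 2. With NFIBΔIDR GYG2 lies below GYG1 (13.4 and 18.6 CPM per kilobase) and with NFIBWT above it (28.7 and 22.4). GYG1 is shown as counted and may include reads of HLTF or lack reads shared with it.

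UGP2, which supplies UDP-glucose to glycogen and to other sugar pathways, had 71.6 and 74.5 CPM with NFIBΔIDR, 69.9 and 61.7 CPM with NFIBWT and 69.5 and 63.2 CPM with EV. The NFIBΔIDR libraries were the highest, by less than the gap within each other pair. Its log2 difference was 0.14 (SE 0.10, adjusted p = 0.582) for NFIBΔIDR against EV and -0.01 (SE 0.10, adjusted p = 0.972) for NFIBWT against EV. GYS1, the rate-limiting synthase, had 21.0 and 27.8 CPM with NFIBΔIDR, 30.1 and 33.5 CPM with NFIBWT and 32.9 and 33.3 CPM with EV. Both NFIBΔIDR libraries lay below all others, while NFIBWT and EV overlapped.

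For GYS1 the log2 difference was -0.45 (SE 0.14) for NFIBΔIDR against EV, with an unadjusted p of 0.00927 and an adjusted p of 0.173. It was -0.06 (SE 0.14, adjusted p = 0.888) for NFIBWT against EV and -0.39 (SE 0.14, adjusted p = 0.107) for NFIBΔIDR against NFIBWT. Whether it passed changed with the NFIBWT libraries in the fit. Without NFIBWT replicate 1 or 2, the adjusted p for NFIBΔIDR against EV was 0.00159 and 0.00171, and it was 0.00177 in a fit of these groups alone, with a range of 0.00159 to 0.730 over 14 alternatives. Without NFIBWT replicate 1, NFIBΔIDR against NFIBWT gave a log2 difference of -0.47 (adjusted p = 0.00664, range 0.00664 to 0.541).

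GBE1, the branching enzyme, was a low gene, with 43 and 32 counts with NFIBΔIDR, 35 and 29 with NFIBWT and 25 and 36 with EV. In CPM these were 5.82 and 4.72 with NFIBΔIDR, 5.25 and 3.73 with NFIBWT and 3.41 and 4.30 with EV. NFIBΔIDR lay above EV, and NFIBWT overlapped both. The log2 difference of 0.45 for NFIBΔIDR against EV had an SE of 0.26 (adjusted p = 0.484) and did not pass the test.

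Of the phosphorylases, which open the route of breakdown, PYGB and PYGL did not pass the test in any comparison, and PYGM was not in it. PYGB had 23.3 and 25.8 CPM with NFIBΔIDR, 29.5 and 28.5 CPM with NFIBWT and 22.5 and 27.1 CPM with EV. Both NFIBWT libraries were above the other 4, by little. The log2 difference of PYGB was -0.02 (SE 0.13, adjusted p = 0.963) for NFIBΔIDR against EV, 0.22 (SE 0.13, adjusted p = 0.478) for NFIBWT against EV and -0.24 (SE 0.13, adjusted p = 0.262) for NFIBΔIDR against NFIBWT.

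PYGL had 12.6 and 11.8 CPM with NFIBΔIDR, 10.5 and 13.5 CPM with NFIBWT and 13.5 and 13.7 CPM with EV. The NFIBWT libraries spanned those of NFIBΔIDR, and the log2 difference between the constructs was 0.01 (SE 0.17, adjusted p = 0.967). PYGM, the muscle form, was near the limit of detection and did not pass the expression filter, with 8 and 3 counts with NFIBΔIDR, 0 and 0 with NFIBWT and 1 and 2 with EV. The count of 0 over both NFIBWT libraries allows up to 0.208 CPM (3 counts over the group), and against that floor the 11 counts of the NFIBΔIDR libraries put PYGM at least 3.74-fold higher with NFIBΔIDR than with NFIBWT. This bound takes the 11 counts as they stand, without their own counting error. The ratio of NFIBΔIDR to EV was 4.06 with an exact 95% interval of 1.07 to 22.7. Both values leave out the spread between libraries. Fitted without the filter, PYGM gave an adjusted p of 0.0225 for NFIBΔIDR against NFIBWT in edgeR. More of all genes passed in that fit too, and 8 of the 11 counts came from a single NFIBΔIDR library.

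The summed phosphorylase RNA was 10.4 ± 0.122 CPM per kilobase (SD, n = 2) with NFIBΔIDR, 11.2 ± 0.566 with NFIBWT and 10.8 ± 0.865 with EV. PYGB made up 56.9 ± 3.54% of it with NFIBΔIDR, 62.6 ± 4.80% with NFIBWT and 55.3 ± 2.86% with EV. In this share NFIBΔIDR overlapped both other groups, and the NFIBWT libraries lay above those of EV. The brain and liver forms were thus expressed side by side, and the muscle form was at the limit of detection.

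Per kilobase, the order of the members was led by UGP2 with NFIBΔIDR (30.0 ± 0.865 CPM per kilobase) and with EV (27.2 ± 1.82), whereas with NFIBWT the libraries of GYG2 (28.7 ± 1.75) and UGP2 (27.0 ± 2.38) overlapped at the top. GYG1 and GYG2 came next with EV and overlapped each other (19.3 ± 1.44 and 19.5 ± 0.529). Below them the order was GYS1, PYGB, PYGL, GBE1 and PYGM in each group. Neighbours in this lower part had separate libraries except GYS1 and PYGB with NFIBΔIDR (6.73 ± 1.33 and 5.94 ± 0.439).

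Of the 6 members tested other than GYG2, 0 passed an adjusted p under 0.05 with NFIBΔIDR against EV (0.652% of all genes tested passed), 0 with NFIBWT against EV (0.615%) and 0 with NFIBΔIDR against NFIBWT (10.7%). DESeq2 called 0 in each comparison too. At an unadjusted p under 0.05 in edgeR, GYS1 was lower with NFIBΔIDR than with EV (1 of 6 members, next to 15.2% of all genes), 0 of 6 members passed with NFIBWT against EV (13.4%), and GYG1 and GYS1 were lower with NFIBΔIDR than with NFIBWT (2 of 6, next to 27.5%). Libraries did not overlap for 4 of 6 members with NFIBΔIDR against EV (53.3% of all genes), 2 of 6 with NFIBWT against EV (42.9%) and 4 of 6 between the constructs (55.3%). These shares were near those of all genes. The median log2 difference of the 6 members was -0.04 for NFIBΔIDR against EV, 0.09 for NFIBWT against EV and -0.11 between the constructs, where the medians of all genes lay at 0.0013, 0.0041 and 0.00087.

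A wider list of 28 glycogen genes, with phosphorylase kinase, protein phosphatase 1 and its PPP1R3 subunits, debranching, lysosomal and glucose 6-phosphate steps, had 22 members tested. With NFIBΔIDR against EV 1 rose (PPP1R3A) and 0 fell, with NFIBWT against EV 1 rose (PPP1R3B) and 0 fell, and with NFIBΔIDR against NFIBWT 1 was higher (PPP1R3A) and 3 were lower (PPP1R3B, PHKA2 and SLC37A4). Of all genes tested, 0.296% rose and 0.356% fell with NFIBΔIDR against EV, 0.452% rose and 0.163% fell with NFIBWT against EV, and 5.19% were higher and 5.52% lower between the constructs. The median log2 difference of the list was -0.08, 0.14 and -0.15 in these comparisons.

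**Figure D3:**
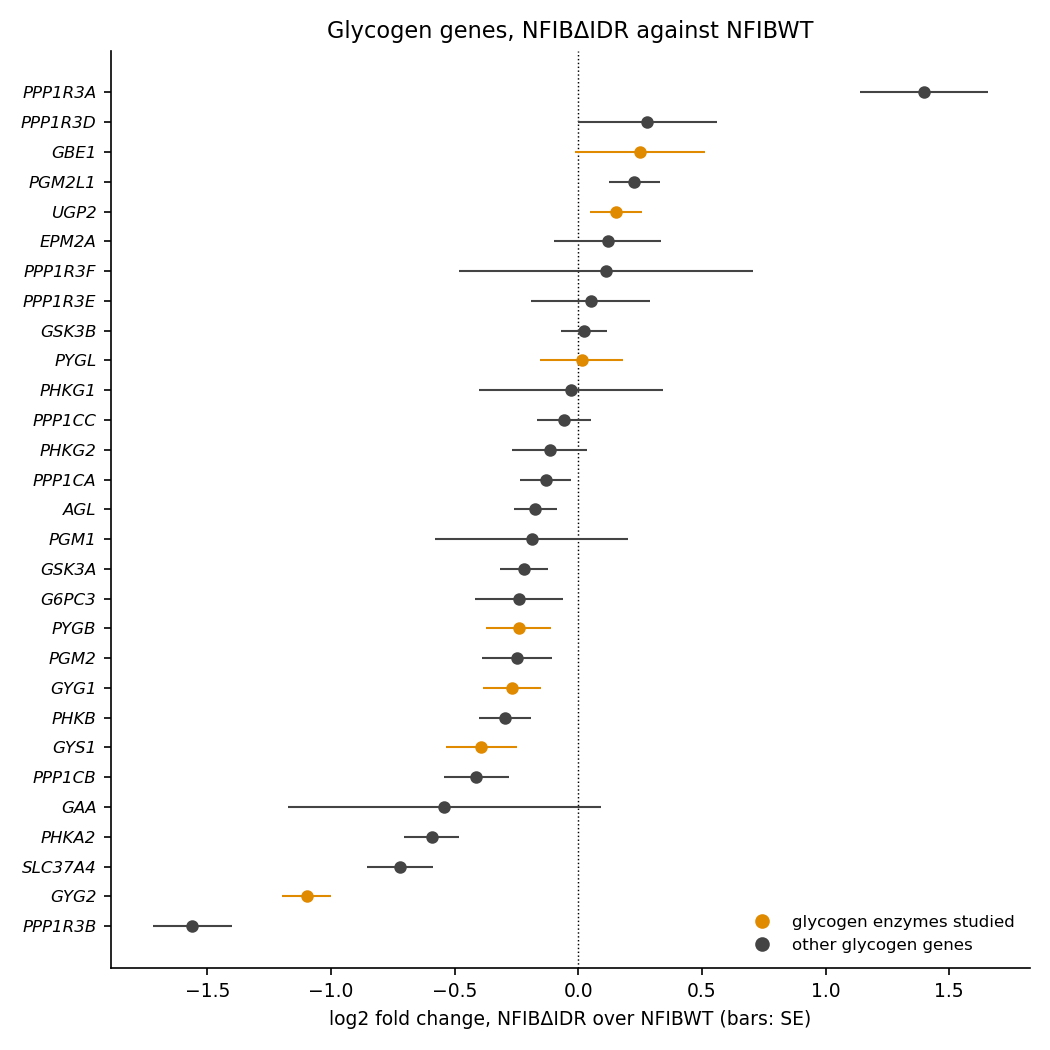
Log2 fold change of NFIBΔIDR over NFIBWT (horizontal axis) with its SE for the 29 glycogen genes that passed the expression filter, ordered from highest to lowest. Orange points are the glycogen enzymes described first and dark points the other glycogen genes. PPP1R3B (-1.56) lies lowest and PPP1R3A (1.40) lies highest. GYG2 (-1.10) was chosen by these values and not tested, so its place is a description only.

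PPP1R3B, the glycogen-targeting subunit of protein phosphatase 1 known from liver, followed the same order of groups as GYG2 with a wider range. It had 30.2 and 23.5 CPM with NFIBΔIDR, 88.3 and 70.7 CPM with NFIBWT and 45.6 and 36.6 CPM with EV. The groups did not overlap, and NFIBWT stood highest. The log2 difference was -1.56 (SE 0.16, adjusted p = 0.000592) for NFIBΔIDR against NFIBWT and passed in all 14 alternatives (adjusted p 1.17e-49 to 0.0312). For NFIBWT against EV it was 0.95 (SE 0.15, adjusted p = 0.025, range 4.47e-24 to 0.391). That call was lost without EV replicate 1 or 2 (adjusted p = 0.139 and 0.391), without NFIBΔIDR replicate 1 or 2 (0.0812 and 0.0794) and in a fit of these groups alone (0.0964). For NFIBΔIDR against EV it was -0.61 (SE 0.17, adjusted p = 0.122, range 9.55e-07 to 0.613). It passed without NFIBWT replicate 1 or 2 (9.55e-07 and 1.02e-06), in a fit of these groups alone (1.43e-06), without the filter (0.00108) and with a block for the replicate number (0.0174).

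PPP1R3A, the targeting subunit of striated muscle, had a different pattern, with 6.63 and 6.20 CPM with NFIBΔIDR, 2.7 and 2.2 CPM with NFIBWT and 1.77 and 2.27 CPM with EV. Only the NFIBΔIDR libraries stood apart, and those of NFIBWT and EV overlapped. In counts these were 49 and 42 with NFIBΔIDR, 18 and 17 with NFIBWT and 13 and 19 with EV. The log2 difference was 1.65 (SE 0.26, adjusted p = 0.0223) for NFIBΔIDR against EV and 1.40 (SE 0.26, adjusted p = 0.0085) for NFIBΔIDR against NFIBWT. Without EV replicate 1 or 2 the adjusted p of the first was 0.276 and 0.231, and without NFIBΔIDR replicate 1 or 2 it was 0.301 and 0.303 (range 1.69e-06 to 0.303 over 13 alternatives). DESeq2 gave no adjusted p for the first. The second did not pass in DESeq2 (0.0776) and without NFIBΔIDR replicate 1 or 2 (0.103 and 0.0784, range 4.75e-05 to 0.103).

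Skeletal muscle markers were measured beside PPP1R3A and PYGM. Of 7 listed, 6 had a row and 2 averaged at least 1 CPM (TNNT1 and MYH3). Their sum was 65.5 and 66.4 CPM with NFIBΔIDR, 28.8 and 43.8 CPM with NFIBWT and 45.2 and 54.8 CPM with EV, most of it TNNT1, a slow muscle troponin. TNNT1 had 59.9 and 60.1 CPM with NFIBΔIDR, 24.6 and 39.7 CPM with NFIBWT and 40.5 and 48.9 CPM with EV. Without TNNT1 the sum lay between 4.12 and 6.35 CPM in every library. MYOD1, the muscle regulator, had 1 count in a single NFIBΔIDR library, and ACTA1, CKM and DES had 0 to 3 counts per library. The part of these genes in the values of PPP1R3A was not tested.

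**Figure D4:**
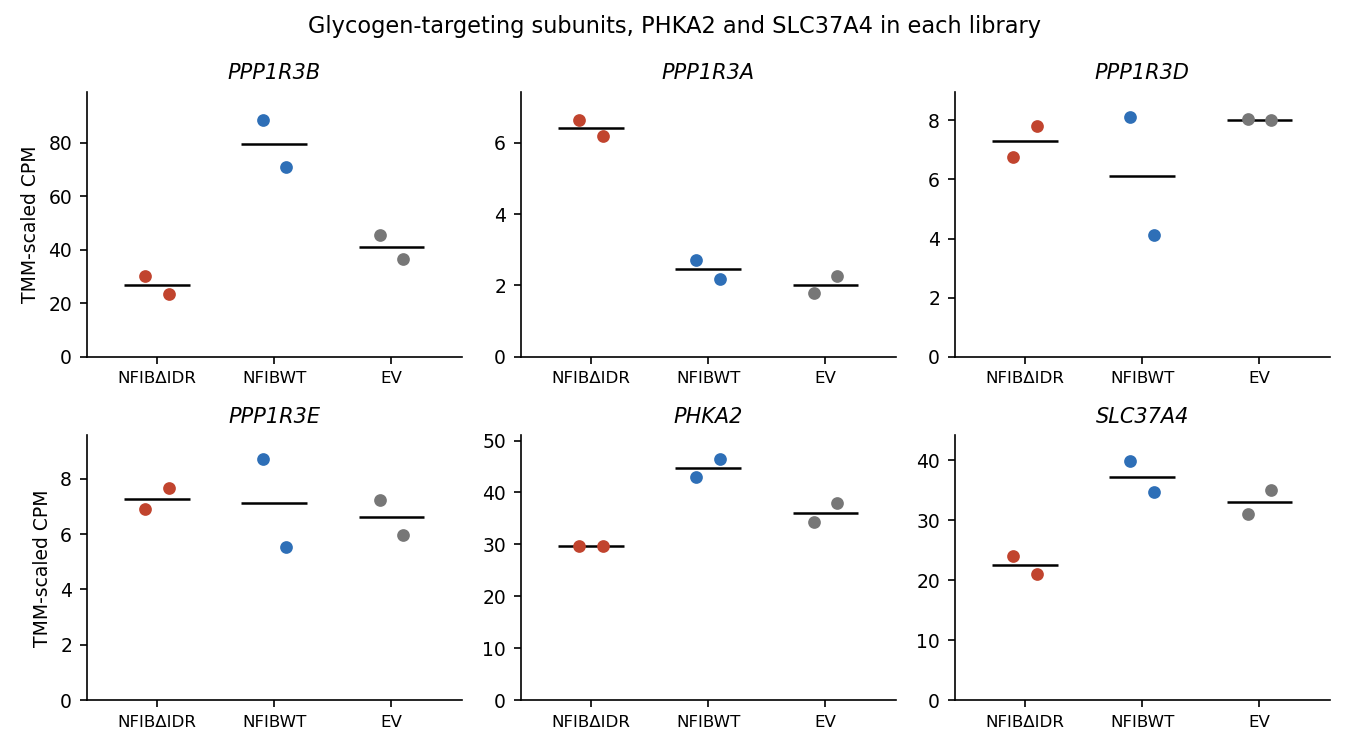
RNA levels of the glycogen-targeting subunits PPP1R3B, PPP1R3A, PPP1R3D and PPP1R3E, of PHKA2 and of SLC37A4 in TMM-scaled CPM (vertical axes, each from 0) with NFIBΔIDR, NFIBWT and EV. Points are libraries and lines are means of 2. PPP1R3B has means of 26.8, 79.5 and 41.1 CPM in these groups, and PPP1R3D and PPP1R3E stay between 4.12 and 8.70 CPM.

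PPP1R3D and PPP1R3E, which target the phosphatase in many tissues, did not pass in any comparison, with adjusted p values of at least 0.516. Without NFIBWT replicate 1, PPP1R3D passed in both comparisons with NFIBWT, where its remaining NFIBWT library (4.12 CPM) was the lowest of all. Within the 6 PPP1R3 genes with a row, PPP1R3B made up 48.5% and 41.4% of the RNA per kilobase with NFIBΔIDR, 74.2% and 78.9% with NFIBWT and 62.5% and 56.2% with EV. The groups did not overlap. PPP1R3G was listed at 0 counts in all 4 libraries with a construct and at 2 counts in each EV library.

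PHKA2, the liver form of the regulatory alpha subunit of phosphorylase kinase, had 29.6 and 29.7 CPM with NFIBΔIDR, 43.0 and 46.4 CPM with NFIBWT and 34.3 and 38.0 CPM with EV. The order of the groups was again NFIBΔIDR lowest and NFIBWT highest, with no overlap. PHKA2, like PPP1R3B, was named for a small p over these contrasts, and the share of all genes with this order is not given here. The log2 difference between the constructs was -0.59 (SE 0.11, adjusted p = 0.00915, range 4.8e-06 to 0.118), and without NFIBΔIDR replicate 1 or 2 the adjusted p was 0.118 and 0.115. Its muscle counterpart PHKA1 had 0 to 3 counts per library. SLC37A4, which carries glucose 6-phosphate into the endoplasmic reticulum, had 24.1 and 21.0 CPM with NFIBΔIDR, 39.9 and 34.6 CPM with NFIBWT and 31.0 and 35.0 CPM with EV. NFIBΔIDR was below both other groups, which overlapped. The log2 difference between the constructs was -0.72 (SE 0.13, adjusted p = 0.00801, range 4.28e-08 to 0.128), with an adjusted p of 0.0727 and 0.128 without NFIBΔIDR replicate 1 or 2. For SLC37A4 in NFIBΔIDR against EV it was -0.55 (SE 0.13, adjusted p = 0.0926, range 6.71e-05 to 0.551), which passed without NFIBWT replicate 1 or 2 (6.71e-05 and 7.05e-05), in a fit of these groups alone (8.18e-05) and without the filter (0.0085).

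Beyond glycogen, 24 genes of glucose uptake, glycolysis and UDP-sugar use were all tested. None passed an adjusted p under 0.05 against EV in edgeR, and DESeq2 called 0 in both. At an unadjusted p under 0.05, 6 of 24 were lower with NFIBΔIDR (next to 15.2% of all genes in either direction), and 4 of 24 were higher and 1 lower with NFIBWT (next to 13.4%). The count of 0 for NFIBΔIDR against EV became 6 lower in a fit of these groups alone and 1 lower without the filter. Calls over all genes rose too, from 88 to 1883 and to 550 in these fits. Both also rose on leaving out either NFIBWT library. For NFIBWT against EV the count of 0 became 1 higher and 1 lower without the filter, and 1 lower with a block for the replicate number. There, calls over all genes rose from 83 to 541 and to 188. On leaving out either NFIBWT library, the list count and the calls over all genes rose as well. With NFIBΔIDR against NFIBWT, 6 were lower (GAPDH, PGK1, ENO1, UGDH, GALT and GALK1; 5.52% of all genes were) and 1 was higher (SLC2A3; 5.19%). The signs leaned the same way, since 22 of 24 differences were below 0 with a median of -0.25, next to 0.00087 for all genes. With library totals alone as the scaling, 21 of 24 were below 0 and the same numbers passed. The 6 and 1 became 4 and 0 in DESeq2 and 1 and 0 in a fit of these groups alone, where fewer of all genes passed too. Both counts fell on leaving out any EV or NFIBΔIDR library, and the count of lower genes rose on leaving out either NFIBWT library. Calls over all genes also changed on leaving out a library.

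GALT, which makes UDP-galactose from UDP-glucose, had 8.79 and 7.68 CPM with NFIBΔIDR, 16.0 and 15.3 CPM with NFIBWT and 12.4 and 11.0 CPM with EV. The groups were separate, in the order seen for GYG2, and the log2 difference between the constructs was -0.92 (SE 0.16, adjusted p = 0.00679, range 3.22e-05 to 0.0974), with 0.0665 and 0.0974 without NFIBΔIDR replicate 1 or 2. The glycolytic enzymes moved less. ENO1 had 1124 and 1116 CPM with NFIBΔIDR, 1399 and 1524 CPM with NFIBWT and 1208 and 1218 CPM with EV (log2 difference between the constructs -0.38, SE 0.07, adjusted p = 0.0101). GAPDH had 1566 and 1607 CPM with NFIBΔIDR, 2062 and 1961 CPM with NFIBWT and 1750.2 and 1769 CPM with EV (log2 difference -0.34, SE 0.07, adjusted p = 0.013). Both were separate between all groups. GALT, ENO1 and GAPDH were named for a small p over these contrasts, and the share of all genes with this order is not given here. Without NFIBΔIDR replicate 1 or 2 the adjusted p was 0.133 and 0.148 for ENO1 and 0.166 and 0.144 for GAPDH. In a fit of the constructs alone it was 0.0503 for ENO1 and 0.0601 for GAPDH, and for GAPDH it was 0.0527 and 0.0524 without EV replicate 1 or 2.

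SLC2A3, a glucose transporter, ran the other way, with 8.12 and 5.31 CPM with NFIBΔIDR, 3.90 and 2.96 CPM with NFIBWT and 8.05 and 7.05 CPM with EV. NFIBWT was lowest, and NFIBΔIDR and EV overlapped. The log2 difference between the constructs was 0.99 (SE 0.28, adjusted p = 0.0468, range 0.00315 to 0.342), close to the threshold. It did not pass without NFIBΔIDR replicate 1 or 2 (0.342 and 0.0806) or without EV replicate 1 or 2 (0.0829 and 0.0821), in DESeq2 (0.193) or in a fit of the constructs alone (0.0864). With NFIBWT against EV it was -1.14 (SE 0.27, adjusted p = 0.093). Without NFIBWT replicate 1 or 2 that difference had an adjusted p of 0.00208 and 0.0157, and it was 0.00073 without the filter and 0.0394 with a block for the replicate number (range 0.00073 to 0.584).

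**Figure D5:**
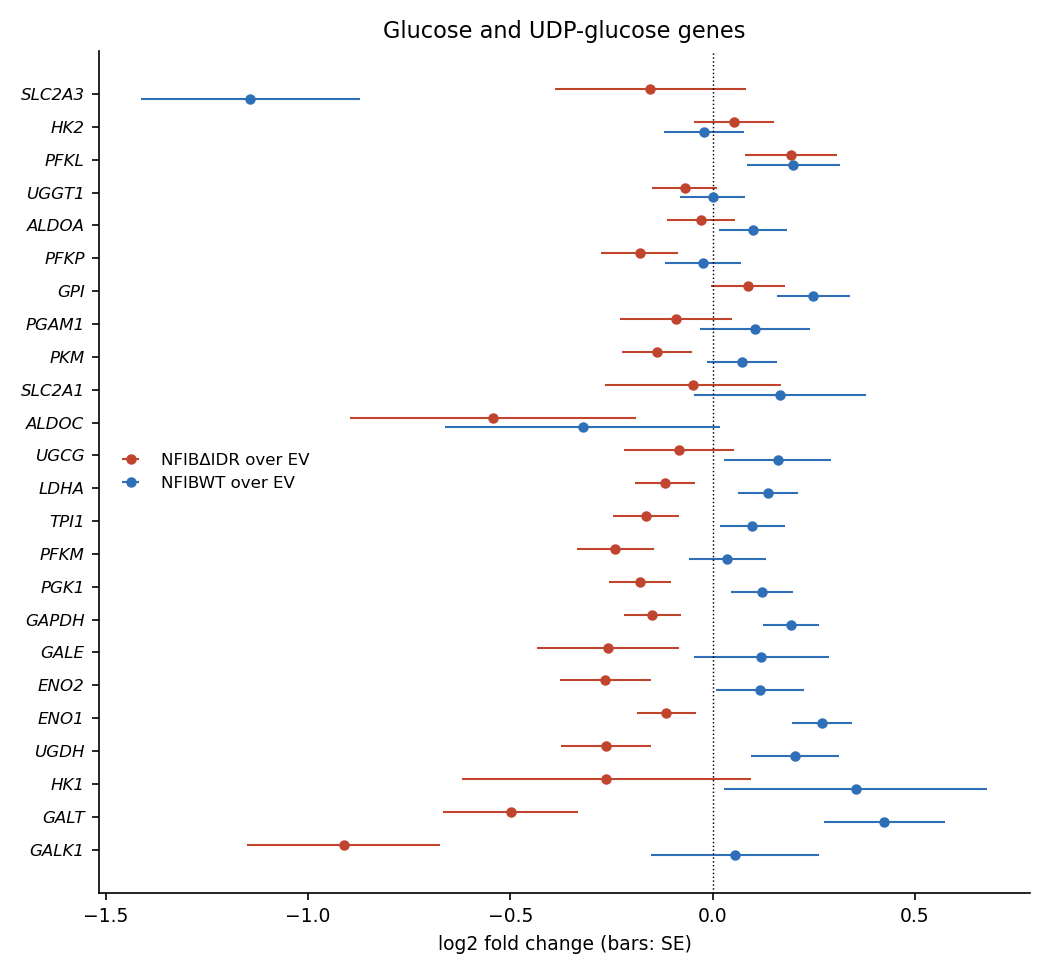
Log2 fold change with its SE (horizontal axis) for 24 genes of glucose uptake, glycolysis and UDP-sugar use, with NFIBΔIDR over EV in red and NFIBWT over EV in blue. Both use the same EV libraries. Most red points lie below 0 (21 of 24) and most blue points above 0 (19 of 24), and SLC2A3 has the lowest blue point (-1.14).

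The genes whose levels ran most like those of GYG2 over the 6 libraries, by Pearson's r of log2 CPM among 13453 genes of at least 1 CPM, were CPNE4 (r = 0.9975), FSTL1 (0.9954), TRAFD1 (0.9953), IFI44 (0.9951) and LINC00693 (0.9949). With 6 libraries in 3 groups, r is set mostly by the order of the groups. CPNE4, a calcium-dependent phospholipid-binding protein, had 40.0 and 40.0 CPM with NFIBΔIDR, 76.9 and 71.0 CPM with NFIBWT and 54.2 and 54.7 CPM with EV. FSTL1, a secreted glycoprotein, had 163 and 155 CPM with NFIBΔIDR, 295 and 268 CPM with NFIBWT and 213 and 196 CPM with EV. Of the glycogen genes, only the tested members and PPP1R3B were ranked, and PPP1R3B had been named for its small p between these groups. PPP1R3B ranked 67 (r = 0.9807), while GYG1 ranked 1539 (r = 0.8111), PYGB 2758 (0.6623) and GYS1 2964 (0.6332). PYGL, GBE1 and UGP2 had r below 0 (-0.1535, -0.3207 and -0.5942).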

How the data were processed

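RNA-seq libraries were made from total RNA with the CORALL kit. Per the submitters' processing notes the authors used CASAVA 2.19, STAR 2.4.0h with hg19 and featureCounts, and deposited raw counts per gene without normalization. The gene lengths used per kilobase are those deposited beside the counts. Strand setting, multi-mapping reads and molecular identifiers were not stated, so overlapping genes may share reads. Counts passing edgeR 4.0.16 filterByExpr (minimum count 10, minimum total 15) were scaled by TMM and tested by quasi-likelihood in R 4.3.3, with 1 model of 3 group means for all 6 libraries. Contrasts were NFIBΔIDR minus EV, NFIBWT minus EV and NFIBΔIDR minus NFIBWT, with Benjamini-Hochberg adjustment over 13501 genes and a threshold of 0.05. Libraries of a group are called biological duplicates by the study. Log2 CPM used a prior count of 2. Alternatives were DESeq2 1.42.0, other scaling, filters and fits, a rule of fold 1.5 with an unadjusted p under 0.05 (the study's rule, which it used with DESeq2), a replicate block and leaving out each library. The scripts were tested on simulated data.

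Members and lists were chosen with earlier results of these data known, and the wider lists were written from textbook knowledge. Named genes were all members, NFIB, up to 4 genes of each wider list with the smallest p over the contrasts, the 5 genes most like GYG2 and cell type markers. HLTF, TNNT1, the single fibroblast markers, PPP1R3D, PPP1R3E, PPP1R3G and PHKA1, named beside them, and the calls of the glucose list were chosen after their values were seen. Gene positions are from GENCODE v44 lifted to hg19, and promoter sequences from RefSeq on GRCh38.p14. Figures were drawn with matplotlib 3.10.9.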

Additional observations from a re-analysis of the deposited data

Results flagged for a closer look

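The effects of the 2 constructs, each relative to the same EV libraries, differed by the direct test of NFIBΔIDR against NFIBWT for 4 genes of the wider glycogen list. The log2 difference was -1.56 for PPP1R3B, 1.40 for PPP1R3A, -0.72 for SLC37A4 and -0.59 for PHKA2 (adjusted p = 0.000592, 0.0085, 0.00801 and 0.00915 from edgeR). These were 4 of 22 tested (18.2%), next to 10.7% of all genes. Without NFIBΔIDR replicate 1 or 2, PPP1R3B still passed and PPP1R3A, SLC37A4 and PHKA2 did not. NFIB RNA itself was higher with NFIBΔIDR than with NFIBWT (log2 difference 1.17), so the constructs differed in NFIB RNA as well as in the IDR. These differences cannot be told apart, and protein amounts were not measured in these libraries. GYG2 (log2 difference -1.10) was not counted here, since it was chosen by these values.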

How the results depend on the processing

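The direction and the side of the threshold held in 514 alternative values for single genes, 32 no longer passed, 29 newly passed and 11 changed sign, none of them past the threshold at first. The spread of 2 libraries per group limits every call, and lone libraries left by an omission are assumed to vary like the rest. Genes called with NFIBΔIDR against EV numbered 88 at first, 550 without the filter, 1883 in a fit of these groups alone, 241 with the replicate block, 644 by fold 1.5 and unadjusted p, and 4 to 1853 when 1 library was left out (4 without EV replicate 2, 1853 without NFIBWT replicate 2). With NFIBWT against EV these were 83, 541, 13, 188, 524 and 9 to 3051 (9 without EV replicate 1, 3051 without NFIBWT replicate 2). Between the constructs they were 1446, 725 in DESeq2, 2280 without the filter, 680 in a fit of these groups alone and 109 to 4405 on leaving out a library (109 without NFIBΔIDR replicate 2, 4405 without NFIBWT replicate 2). The cause was not tested.

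Members called, 0 in each comparison, became 1 (GYS1) with NFIBΔIDR against EV in a fit of these groups alone, 1 (PYGM) between the constructs without the filter, and 0 to 1 in each comparison when a library was left out. In the wider glycogen list, the count for NFIBΔIDR against EV was 1, with 0 in DESeq2, 3 without the filter, 4 in a fit of these groups alone, 2 with the replicate block, 2 by the fold rule and 0 to 5 on leaving out a library. For NFIBWT against EV it was 1, with 2, 0 and 0 to 4 without the filter, in a fit of these groups alone and on leaving out a library. Between the constructs it was 4, with 1 to 9 on leaving out a library.

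With library totals as the only scaling, PYGB was at 0.0016 with NFIBΔIDR against EV on the log2 scale. Leaving out a library moved GYG1 between -0.13 and 0.023, PYGB between -0.14 and 0.12 and SLC2A3 between -0.50 and 0.11 with NFIBΔIDR against EV, UGP2 between -0.10 and 0.082, GYS1 between -0.13 and 0.017 and GBE1 between -0.055 and 0.44 with NFIBWT against EV, and PYGL between -0.15 and 0.21 between the constructs.

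Same-numbered libraries deviated together only weakly (r over genes 0.016 for NFIBΔIDR and EV, 0.15 for NFIBWT and EV and 0.054 for the constructs), so the numbers were not taken to pair them.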
